A study of Bos taurus with 4 samples.

Results

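Calmodulin and the kinases that it switches on were examined in sperm RNA of high- and low-fertile buffalo bulls through all sample probes of the array that carry 1 of 8 gene names: CALM2, CALM3, CAMK2A, CAMK2B, CAMK2D, CAMK2G, CAMK4 and CAMK1. The array holds 16 such probes, spotted at 17 positions, among 51282 sample probes with 32429 gene names. They belong to 6 of the 8 genes, with 4 probes each for CALM3 and CAMK2D, 3 for CAMK2G, 2 each for CAMK2A and CAMK1 and 1 for CAMK2B. CALM2 and CAMK4 have no probe under their names. The RefSeq accession of each of the 16 probes gave the same gene symbol as the array. These genes were chosen with the difference between the fertility groups already known, so their differences are given as a description, and no p-value of theirs is used as evidence.

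The RNA came from Percoll-selected spermatozoa of Murrah buffalo breeding bulls and was labelled with Cy3. The high-fertile group was 2 pools of RNA and the low-fertile group was 2 pools, each pool made from equal amounts of sperm RNA of 2 bulls whose field conception rates lay at least 1 SD above or below the mean of the bulls evaluated. Treatment and age are not stated in the sources used here. Each pool was hybridized to 1 array of the same slide, an array designed for cattle (Bos taurus), and the organism is labelled as cattle although the sample descriptions say buffalo. The pool is the replicate, and the small number of arrays, 2 in a group, sets the precision. Each group filled its own row of the slide, so row and fertility cannot be told apart.

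Calmodulin is a small calcium sensor: calcium ions bind to it, and the loaded protein then binds and activates its target enzymes. In mammals the same calmodulin protein is encoded by more than 1 gene, CALM2 and CALM3 among them. Among the targets, calcium/calmodulin-dependent protein kinase II (CaMKII) is built of alpha, beta, gamma and delta subunits encoded by CAMK2A, CAMK2B, CAMK2G and CAMK2D, whereas CAMK1 and CAMK4 are single-chain kinases that are activated further by an upstream kinase, CaMKK. In spermatozoa, calcium and calmodulin are known for their part in hyperactivated motility, capacitation and the acrosome reaction.

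Probe sequences in 5 sets carry the comparisons below, given 5′ to 3′ as designed on the array, with the position that the array's annotation gives on the bovine build Btau_3.1. Probes are called by their gene and by the base of the gene's transcript at which the annotation says that they start. The first set is the pair of CALM3 probes detected well above background in all 4 pools, which differed from each other in the comparison. Their first 30 bases are shown, from chr18:53539120-53539179 and chr18:53539680-53539739 on the plus strand.
CALM3 base 662: aaagcaacaaaagatttgtcccaagctgca
CALM3 base 1222: attggctgctcttgtgaagcatcagactgg

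The second set is a CAMK2D and a CAMK2G probe that lie on matching stretches of the paralogous subunits, which bears on how far the array can separate them. Capitals mark the bases that are identical when the probes are aligned without gaps, which are 38 of the 49 bases that overlap (77.6%). Both probes span more of the genome than their own 60 bases, chr6:13216385-13218500 on the plus strand and chr28:29092308-29094062 on the minus strand.
CAMK2D base 1256: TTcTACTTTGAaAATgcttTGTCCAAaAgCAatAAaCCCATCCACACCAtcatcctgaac
CAMK2G base 1274: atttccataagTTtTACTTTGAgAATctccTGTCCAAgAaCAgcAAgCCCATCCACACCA

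The third set is a pair of CAMK2G probes, chr28:29091468-29091527 and chr28:29091461-29091520 on the minus strand, that overlap by 53 bases with a shift of 7 bases. They read almost the same stretch of the transcript and so serve as a check of one probe by another. Capitals mark the 23 shared bases within the first 30 bases of each.
CAMK2G base 1624: tgttcgtTTGAGGTTTAAAACAATTAAATT
CAMK2G base 1631: TTGAGGTTTAAAACAATTAAATTacaaagc

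The fourth set is the start of the CAMK2D probe with the largest lower difference, at chr6:13223059-13223118 on the plus strand. The fifth set is the pair of probes that also span more of the genome than their own length and were not well above background on any array, a CAMK2D probe (chr6:13126050-13136799) and a CAMK1 probe (chr22:17380925-17382248), both on the plus strand and shown whole.
CAMK2D base 2920: catggtatcttcatcaaccttattttaaca
CAMK2D base 420: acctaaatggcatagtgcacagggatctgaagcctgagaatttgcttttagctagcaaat
CAMK1 base 981: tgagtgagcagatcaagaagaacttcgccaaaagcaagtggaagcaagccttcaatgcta

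No sample probe of another gene name shared a stretch of 20 bases with any of the 16 probes. The exon and coding status of the probes was not analysed here.

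Detection came first, since a probe that is not well above background carries only a bound. The scanner software marked 2 of the 16 probes as well above background on all 4 arrays, 5 on 3 arrays, 1 on 2 arrays, 4 on 1 array and 4 on no array. A probe with 2 spots was counted when at least 1 of them had the mark. By array, 8 and 9 of the 16 probes were well above background in high-fertile pools 1 and 2, and 9 and 3 in low-fertile pools 1 and 2. Over all sample probes the corresponding numbers were 23271, 23228, 25642 and 13033, so low-fertile pool 2 was the array with the fewest detected probes among these genes and across the array. In bulk RNA, fewer cells of a type and less RNA per cell cannot be told apart. The fit over 21033 probes took in those that were well above background in both pools of either group, and 8 of the 16 probes met this condition. For 6 of them it was met by the high-fertile pair alone, and for the other 2 by both pairs, which are the CALM3 probes at bases 662 and 1222. Counts over these 8 probes therefore describe probes that mostly qualified through the high-fertile pair, while low-fertile pool 2 detected the fewest probes.

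Values below are the processed signal of the scanner, a linear brightness with the background subtracted, or the normalized log2 signal, which is the log2 of that signal minus the 75th percentile of the array. A difference is the mean normalized log2 signal of the low-fertile pools minus that of the high-fertile pools. Because probes differ in how they hybridize, signals are compared between pools for 1 probe, and no order of expression among the genes is given.

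**Figure D1:**
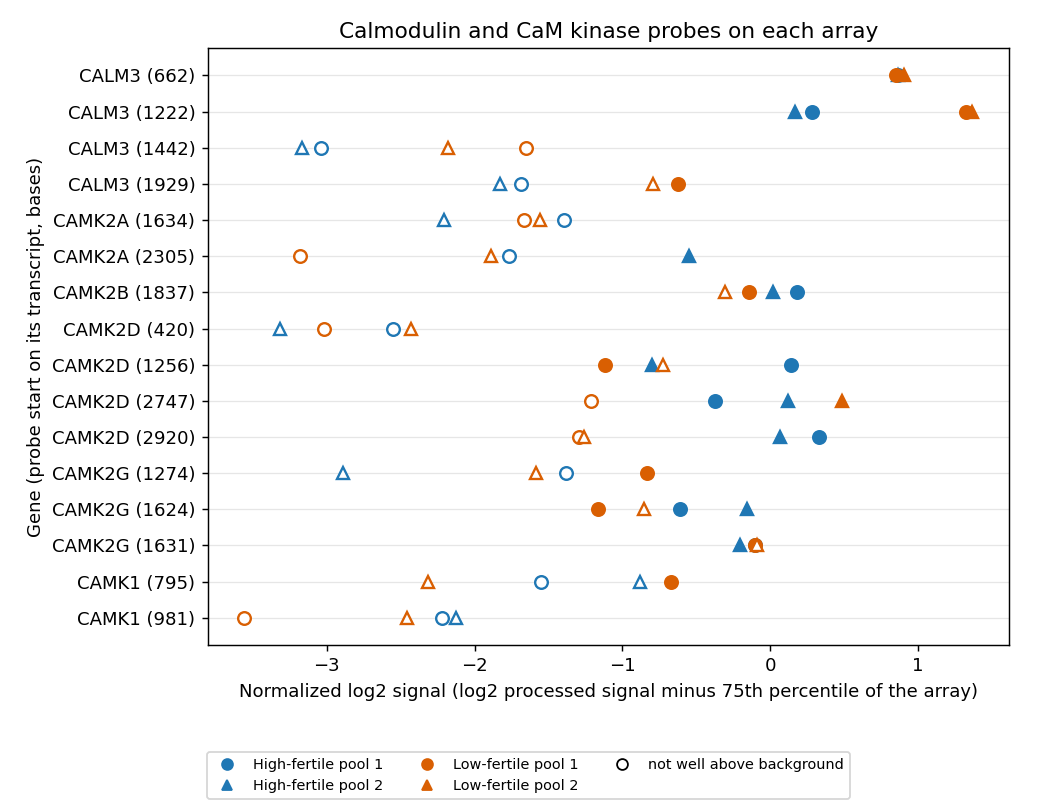
Normalized log2 signal (x axis, log2 units) of the 16 calmodulin and CaM kinase probes on each array, with the gene and the start base of the probe on the y axis. Blue marks the high-fertile and orange the low-fertile pools, circles pool 1 and triangles pool 2, and open symbols are spots not well above background. The CALM3 probe at base 662 has its 4 points together, the probe at base 1222 has its low-fertile points to the right of its high-fertile points, and the CAMK2D probe at base 2920 has them to the left.

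Calmodulin was read through CALM3, and its probes did not give 1 answer. At base 662 the processed signal stood at 66.6 and 67.5 in the high-fertile pools against 66.6 and 61.2 in the low-fertile pools. The normalized log2 signal was 0.86 ± 0.0011 (SD, n = 2) for high fertility and 0.88 ± 0.042 (SD, n = 2) for low fertility, a difference of 0.02 with overlapping groups. It was -0.36 when the arrays were aligned on the spike-in probes, which read control RNA added to every sample.

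At base 1222, 560 bases further along the same transcript, the signal was 44.6 and 41.7 in high-fertile pools 1 and 2 against 92.4 and 84.2 in the low-fertile pools. Both low-fertile pools were above both high-fertile pools. The normalized log2 signal was 0.23 ± 0.080 (SD, n = 2) against 1.34 ± 0.033 (SD, n = 2), a difference of 1.12, many times the spread within either group. The difference was between 1.06 and 1.17 with any 1 pool left out, 0.75 with the spike-in alignment and 0.56 after the normexp correction. That correction models the background of an array in place of subtracting it and adds an offset of 50 to each signal, which by construction draws the log differences of dim probes towards 0.

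The remaining CALM3 probes were dim. At base 1929 (chr18:53540387-53540446) the signal was 11.4 and 10.4 in high-fertile pools 1 and 2 against 24.0 and 18.8 in the low-fertile pools, with low-fertile pool 1 the only array well above background. Both low-fertile values were the higher ones, but with 1 array measured no fold is given. At base 1442 (chr18:53539900-53539959) the signal was 4.47 and 4.13 against 11.8 and 7.20, in no pool well above background, so no fold is given there either. Of the 3 probes from base 1222 onward only that at base 1222, brighter in both low-fertile pools, was measured in both groups, and the probe nearest the start was level between the groups.

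**Figure D2:**
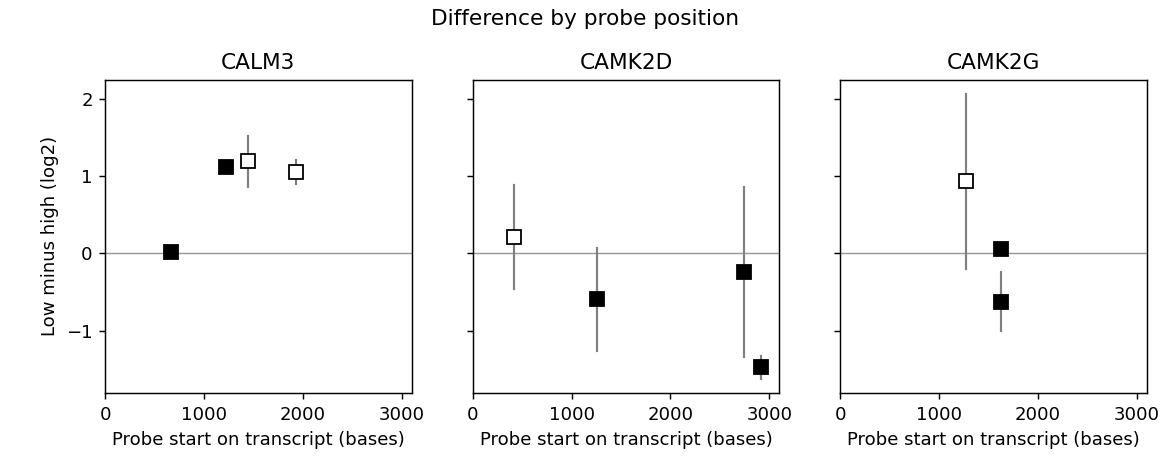
Low-fertile minus high-fertile difference (y axis, log2 units) against the start base of the probe on the transcript (x axis, bases) for CALM3, CAMK2D and CAMK2G. Squares are differences of the group means, filled where the probe entered the fit, and bars run from the smallest to the largest difference between a low-fertile and a high-fertile pool. Bars of the CALM3 probes from base 1222 onward stay above 0, with the squares at bases 1442 and 1929 open. That of the CAMK2D probe at base 2920 stays below 0. For CAMK2G, the bar at base 1624 also stays below 0 and that at base 1631 just above it.

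CALM2 could be reached only through accessions, and with the exception of 1 spot its signals were not well above background. RefSeq gave CALM2 for 2 probes that carry other names on the array. One of them, named CALM and shared with the symbol CALM (chr20:8508705-8508764), had signals of 5.97, 4.88, 3.61 and 7.55 in high-fertile pools 1 and 2 and low-fertile pools 1 and 2, none of them well above background. The other probe has 2 spots. Its first spot gave 3.44, 3.75, 3.21 and 6.12 on the arrays in the same order, and its second spot gave 1999 on the array of high-fertile pool 1 and 3.61, 3.51 and 6.92 on the others. The bright spot stood beside 3 of its 6 nearest spots that were off by over 2 log2 units on that array, and the other spot of the probe on that array was dark.

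The CaMKII subunits were measured through 10 probes, and none of them was well above background on all arrays. CAMK2D, the delta subunit, had the largest lower difference. At base 2920 its signal was 46.1 and 38.8 in high-fertile pools 1 and 2 against 15.1 and 13.6 in the low-fertile pools. Both high-fertile pools were well above background and neither low-fertile pool was. Each low-fertile pool stood above the lowest signal well above background on its array, so its own signal was used. By these signals, once normalized, the high-fertile pools were 2.77-fold brighter. The normalized log2 means were 0.20 ± 0.19 and -1.28 ± 0.021 (SD, n = 2 each), a difference of -1.47. Its size rests on low-fertile values that were not well above background. With any 1 pool left out the difference was between -1.60 and -1.34, and after the normexp correction it was -0.47.

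Within CAMK2D the other probes did not repeat that separation. At base 2747 (chr6:13222887-13222946), 173 bases before the last probe, the signal was 28.3 and 40.4 in high-fertile pools 1 and 2 against 15.95 and 45.7 in the low-fertile pools. Low-fertile pool 1, the only array not well above background, held the lowest and low-fertile pool 2 the highest value of the 4 arrays. The difference was -0.24 with overlapping groups, and it was 0.61 without low-fertile pool 1 and -1.09 without low-fertile pool 2, so the low-fertile pools disagreed on its direction. At base 1256 the signal was 40.4 and 21.3 against 17.1 and 19.7, with low-fertile pool 2 not well above background. High-fertile pool 1 stood above the other 3 arrays, and high-fertile pool 2 was below low-fertile pool 2 once the arrays were normalized, so the groups overlapped at a difference of -0.59. Left-out pools moved it between -1.06 and -0.12. At base 420 no array was well above background, with signals of 6.25, 3.74, 4.58 and 6.06.

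CAMK2G, the gamma subunit, had a pair of overlapping probes that gave unlike values. At base 1624 the mean of its 2 spots was 24.1 and 33.2 in the high-fertile pools against 16.5 and 18.1 in the low-fertile pools. Low-fertile pool 2 was not well above background, and in low-fertile pool 1 only the spot at 19.8 was. The pools of the groups did not overlap, and the difference was -0.62, between -0.85 and -0.40 with any 1 pool left out and -0.15 after the normexp correction. Spot by spot, the array values were 22.7 and 25.5, 28.4 and 38.8, 19.8 and 13.8, and 17.6 and 18.6, so the spots of the high-fertile arrays ran from 22.7 to 38.8 and those of the low-fertile arrays from 13.8 to 19.8. At base 1631, on 53 of the same bases, the signal was 34.1 and 32.3 against 34.5 and 30.6, with low-fertile pool 2 not well above background. The difference was 0.06, with normalized log2 means of -0.15 ± 0.068 and -0.098 ± 0.0089 (SD, n = 2 each). Once the arrays were normalized, both low-fertile pools were above both high-fertile pools by a margin smaller than the spread of the high-fertile pools. The difference turned to -0.32 with the spike-in alignment.

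The third CAMK2G probe, at base 1274, which shares most of its bases with CAMK2D base 1256, was well above background on low-fertile pool 1 alone. Its signal was 14.1 and 5.003 in high-fertile pools 1 and 2 against 20.8 and 10.9 in the low-fertile pools, and the groups overlapped. The mean was higher in the low-fertile pools. The CAMK2D probe on the matching stretch was lower in the low-fertile pools by its means, so the means of the paralogous probes differed in opposite directions, with overlapping groups in both.

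CAMK2B, the beta subunit, had 1 probe, at base 1837 (chr4:79863275-79863334). Its signal was 41.5 and 37.6 in high-fertile pools 1 and 2 against 33.6 and 26.4 in the low-fertile pools, with low-fertile pool 2 not well above background. The pools did not overlap, and the difference was -0.32, from 0.098 ± 0.11 to -0.22 ± 0.12 (SD, n = 2 each). It was between -0.41 and -0.24 with any 1 pool left out, -0.02 after the normexp correction and -0.69 with the spike-in alignment.

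CAMK2A, the alpha subunit, was near background. At base 2305 (chr7:61044958-61045017, minus strand) the signal was 10.8 and 25.4 in high-fertile pools 1 and 2 against 4.09 and 8.81 in the low-fertile pools, with high-fertile pool 2 the only array well above background. Both high-fertile values were the higher ones, but with 1 array measured no fold is given. The spot of this probe on the array of low-fertile pool 1 had 2 of its 6 nearest spots off by over 2 log2 units. At base 1634 (chr7:61045629-61045688, minus strand) the signals of 13.96, 8.04, 11.7 and 11.1 were in no pool well above background.

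Of the genes examined, the single-chain kinases CAMK1 and CAMK4 were mostly not well above background. CAMK1 at base 795 (chr22:17380115-17380174) had signals of 12.5 and 20.2 in the high-fertile pools against 23.3 and 6.57 in the low-fertile pools. The low-fertile pools held the highest and the lowest value, with pool 1 the only array well above background. At base 981 the signals were 7.88, 8.53, 3.15 and 5.94, none well above background. For CAMK4, RefSeq matched the accessions of 4 probes that carry other names. One of them was well above background in pool 1 of each group, with signals of 19.9 and 13.2 in the high-fertile and 20.9 and 11.9 in the low-fertile pools, a difference of 0.04. The other 3 were well above background on no array, and the brightest of them gave 8.75, 12.7, 14.2 and 7.12.

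Over the 8 probes that entered the fit, 3 had a higher and 5 a lower mean for low fertility, with a median difference of -0.28 beside -0.0047 over all 21033 probes. The pools of the groups did not overlap for 5 of the 8, of which 3 were lower and 2 higher. Over all probes tested, the share not overlapping was 69.1%, with 35.5% lower and 33.6% higher. In limma, a linear model that shares the spread across probes, with Benjamini-Hochberg adjustment over all probes, 2 of the 8 had an adjusted p under 0.05. They were the CALM3 probe at base 1222, higher, and the CAMK2D probe at base 2920, lower. Over all probes 26.8% passed, 9.22% higher and 17.6% lower, and since the genes were picked on this contrast nothing is read from the count. The CAMK2D probe at base 2920 entered the fit only through the high-fertile pair, where it is bright. When the arrays were aligned on 7 spike-in probes in place of the 75th percentile, the median of all differences moved to -0.38. The calls over all probes then went from 1940 higher and 3692 lower to 578 higher and 6750 lower, and those among the 8 probes to 1 higher and 3 lower. The alignment adds 1 constant to each array, so the difference of each probe moved by the same amount.

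**Figure D3:**
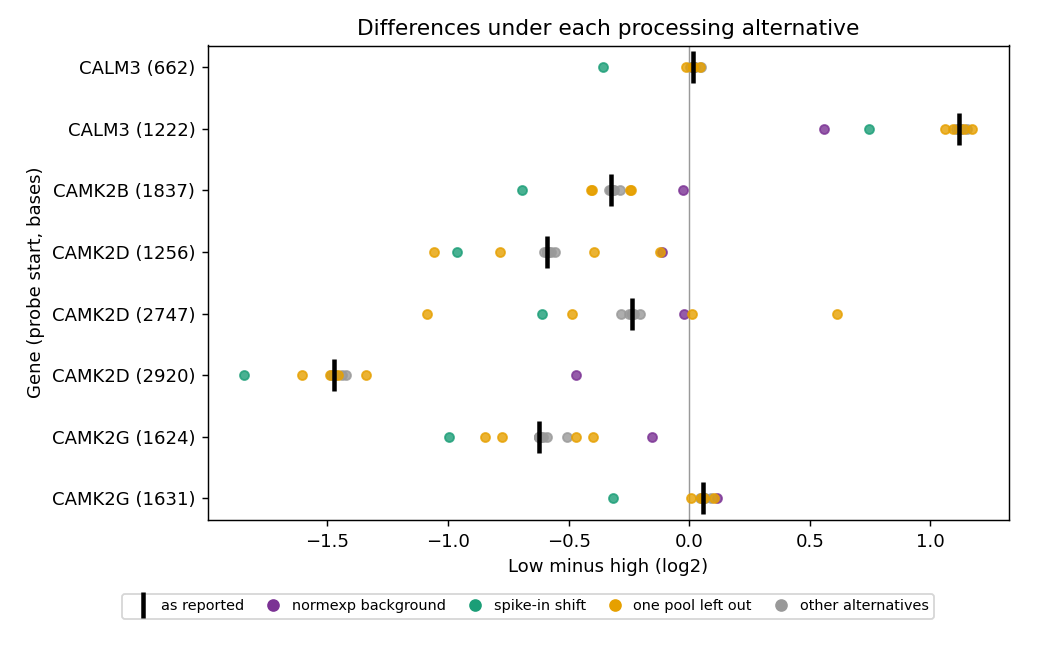
Low-fertile minus high-fertile difference (x axis, log2 units) of the 8 probes that entered the fit, as reported (black bar) and under each processing alternative (dots), with the gene and start base on the y axis. The normexp dots (purple) lie closer to 0 than the reported value for the 6 probes with the largest differences, the spike-in dots (green) lie to the left of it for each probe, and the CAMK2D probe at base 2747 has dots of left-out pools on both sides of 0.

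Only the 2 CALM3 probes at bases 662 and 1222 could be compared with other genes over 4 measured arrays. Among 5790 annotated genes well above background on all 4 arrays, the 3 whose centred normalized log2 values lay closest to CALM3 base 1222 were CTU1, RGMA and SLC43A2, at root mean square distances of 0.0158, 0.0198 and 0.0222. For CALM3 base 662, which was level, they were SMAP2, KLHL7 and SUV420H2, at 0.00805, 0.0105 and 0.0145. The distances are a description over 4 arrays, with no test.

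The rest of the calmodulin pathway was read from 52 other genes by their textbook roles, each through its brightest probe. Of these, 49 had a probe on the array, 28 were well above background on both arrays of a group and 18 on all 4 arrays. In limma 4 of the 28 passed an adjusted p of 0.05, 1 risen and 3 fallen with low fertility, beside 26.1% of 16685 genes read in the same way, with 9.53% higher and 16.6% lower. The median difference over the 28 was 0.11, and over all genes 0.01. Of the 28, 9 entered the fit through the high-fertile pair alone, 1 through the low-fertile pair alone and 18 through both. Each of the 4 calls was made by 1 probe of its gene. The number of genes past the threshold was 2 without high-fertile pool 1 and 7 without low-fertile pool 1.

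PPM1F, a phosphatase that removes the activating phosphates of CaM kinases, was among the 4 and rose by 0.92 on the log2 scale (adjusted p = 0.0115 and standard error 0.155, limma), with signals of 28.8 and 33.7 in the high-fertile and 57.3 and 53.9 in the low-fertile pools. The difference was 0.27 after the normexp correction and 0.55 with the spike-in alignment, both past the threshold. Without high-fertile pool 1 it was 0.82 and did not pass (adjusted p = 0.0642, limma). The related phosphatase PPM1E had a difference of 0.40 that did not pass.

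The other 3 calls are named here after their values were seen. CAMKK2, the kinase upstream of CAMK1 and CAMK4, fell by 0.54 (adjusted p = 0.0438, limma), from 80.3 and 78.2 to 52.3 and 50.1. The difference was -0.33 after the normexp correction and -0.92 with the spike-in alignment. It did not pass with any 1 pool left out, at adjusted p between 0.0779 and 0.164, and its other probes gave -0.26 and -0.14. RCAN3 and MEF2C entered the fit only through the high-fertile pair, where they were bright, and low-fertile pool 2 was not well above background for either, so the sizes that follow rest in part on a value that was not measured. RCAN3, a regulator of the calmodulin-dependent phosphatase calcineurin, fell by 2.18 (standard error 0.309, adjusted p = 0.00718, limma), with signals of 76.3 and 53.1 against 18.2 and 9.58. MEF2C, a transcription factor that acts downstream of CaM kinases and calcineurin, fell by 1.86 (standard error 0.140, adjusted p = 0.00223, limma), with signals of 84.0 and 85.9 against 24.0 and 20.3. The other probes of these genes were not well above background on any of the arrays. After the normexp correction the differences were -0.68 for RCAN3 and -0.70 for MEF2C.

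By role, the values of genes that did not pass are given with their range when any 1 pool is left out, and the genes named were chosen after their values were seen. None of the 9 measured CaM kinase relatives passed. Among them MYLK, the myosin light chain kinase, had a difference of -0.40 (-0.53 to -0.28) and groups that did not overlap. CAMK1G had -0.21 and DAPK1, a calmodulin-regulated death kinase, 0.08 (0.02 to 0.15). The value of CAMK1G rested on high-fertile pool 1 and turned to 0.19 without it. None of the 3 calmodulin buffers passed, with NRGN at 0.20 (0.15 to 0.25) and GAP43 at -0.45 (-0.64 to -0.25). The third, PCP4, entered through the high-fertile pair alone, and its -0.74 was 0.01 without low-fertile pool 2, which was not well above background. The catalytic calcineurin subunit PPP3CA had a difference of -0.53 (adjusted p = 0.114, limma), which was -0.28 without low-fertile pool 2, and PPP3CB, PPP3CC, PPP3R1 and PPP3R2 were not tested. The CaMKII inhibitor CAMK2N2 had 0.20, the calmodulin-dependent phosphodiesterase PDE1B 0.32 and the nitric oxide synthase NOS3 0.42, which did not pass and were 0.02, 0.11 and 0.20 without the same pool. CAMK2N1 was not tested, and NOS2 had 0.13 (0.10 to 0.16). The calmodulin-regulated adenylyl cyclases ADCY8 and ADCY3 had -0.58 and -0.25 and did not pass, with low-fertile pool 2 not well above background for either. Without high-fertile pool 2 ADCY8 was at -0.32, and without low-fertile pool 2 ADCY3 was at 0.06. Of the nuclear targets, ATF1 had a difference of -0.74 (-0.95 to -0.54, adjusted p = 0.0566, limma), with low-fertile pool 2 not well above background. CREBBP entered through the low-fertile pair alone, with neither high-fertile pool well above background. By its own normalized signals it was 2.55-fold brighter in the low-fertile pools (adjusted p = 0.0521, limma). On the log2 scale its 1.35 was 0.76 without low-fertile pool 2. CREB1 and CREM were not tested. Of the 24 genes that did not pass, 5 turned sign when some pool was left out. A p that misses the threshold does not show that the values were equal.

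**Figure D4:**
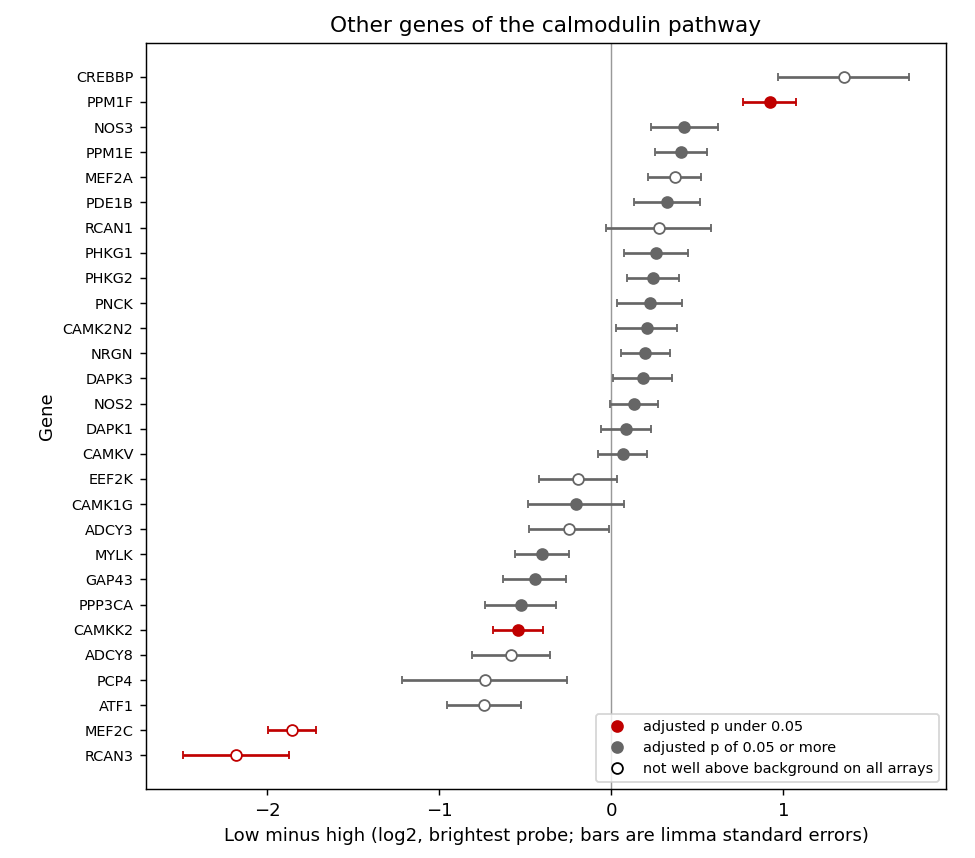
Low-fertile minus high-fertile difference (x axis, log2 units) of the 28 measured other genes of the calmodulin pathway (y axis), read from the brightest probe, with limma standard errors as bars. Red marks an adjusted p under 0.05, and open circles are probes not well above background on all 4 arrays. RCAN3, MEF2C and CAMKK2 lie below 0 and PPM1F above it in red, and the other 24 genes are grey.

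The tissue label was checked with marker lists. Of 18 sperm markers, 8 were measured, among them PRM1, TNP1, ODF1 and ACR on all 4 arrays, whereas PRM2, TNP2, AKAP4, SMCP, LDHC, CRISP2 and 4 others were not well above background on both arrays of either group. The summed level of the 8, in multiples of the 75th percentile, was 21.2 and 22.1 in the high-fertile and 21.6 and 23.5 in the low-fertile pools, and 1 marker passed, PRM1, which rose by 0.67 (adjusted p = 0.0231, limma). Of 10 leukocyte markers 7 were measured, with summed levels of 209 and 213 against 328 and 369. The sums depend on how bright each probe is, and without PTPRC, which rose by 0.78 (adjusted p = 0.0160, limma), that of the other 6 was 18.6 and 21.3 against 17.2 and 20.7. The median difference over the 7 was -0.04, with LCP1 at -0.22, TYROBP at -0.29, CD53 at -0.16, LAPTM5 at -0.04, CD68 at 0.03 (LAPTM5 and CD68 turned sign with a pool left out) and CD14 at 0.40, none of which passed, and CD3E, CORO1A and CD48 were not measured. One marker each also rose among 6 measured epithelial, 3 red cell and 5 testis somatic markers, CLDN7, HBB and STAR, and none fell in any list, beside 9.53% higher and 16.6% lower over all genes. Within those lists 4 of 6, 2 of 3 and 3 of 5 values were above 0, with HBA at -0.17, INSL3 at -0.24 and HSD3B1 at -0.27 among those below it. These lower values depended on 1 pool each. HBA was 0.27 and HSD3B1 -0.0052 when high-fertile pool 2 was left out, and INSL3 was 0.01 with low-fertile pool 1 removed. Some of the values above 0 did so as well. AMH went from 0.09 to -0.20 once high-fertile pool 1 was dropped. Leaving out low-fertile pool 2 took KRT18 from 0.14 to -0.06 and AHSP from 0.24 to 2.6e-05. KRT8, CLDN4, CLDN7, HBB, CYP17A1 and STAR stayed above 0 whichever pool was left out. HBB entered the fit through the low-fertile pair alone. The summed levels were 25.0 to 25.5 against 27.2 to 30.3 for epithelium, with EPCAM and CDH1 not measured, 7.32 to 11.1 against 8.82 to 11.0 for red cells, and 15.1 to 19.2 against 18.3 to 21.1 for testis somatic cells. With the spike-in alignment 1 marker over the 5 lists was called higher and 4 lower, and without either high-fertile pool in turn 1 marker passed. The part of other cells in the differences of CALM3 and CAMK2D was not tested.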

How the data were processed

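Sperm RNA of 4 pools was measured on a 1-dye bovine array. The authors deposited the scanner output, linear intensities with the background subtracted by Agilent Feature Extraction, and a table of log2 values that they had shifted by the 75th percentile of each array in GeneSpring. Here the log2 processed signals of the 61657 sample spots were averaged per probe without outlier spots, and the 75th percentile of each array was subtracted. That percentile was a signal of 36.7 and 37.1 in the high-fertile and 37.0 and 32.7 in the low-fertile pools. The median absolute difference from the deposited table was 0.0090 and the largest over tested probes 11.8, with 76 of 84123 tested values over 1 log2 unit apart. For the calmodulin and kinase probes the largest was 0.25.

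Probes that the scanner marked well above background in both pools of either group went into limma 3.58.1 (R 4.3.3), low fertile minus high fertile over all 4 arrays, with Benjamini-Hochberg adjustment. No tested probe was saturated. Tables were made with Python 3.11.15, pandas 2.3.3 and numpy 2.4.6. The fit was tested on simulated data. The methods' t-test was run as an alternative. The genes and lists were chosen with earlier results of these data known. Nothing says which bulls were in which pool, so p-values measure the spread between pools only. Every probe of the 8 genes is named, and of the other pathway genes those past the threshold on all 4 arrays with an absolute log2 difference above 0.8, which was PPM1F. Further pathway genes and markers are named after their values were seen. Of the pathway list, 1 gene is not reported here. For likeness of pattern, the rule asked for the calmodulin and kinase probes with the largest higher and lower difference among those well above background on all 4 arrays. Only 2 such probes exist and neither was lower, so both were used. The slide and scan are shared by all arrays and could not be fitted as a block.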

Additional observations from a re-analysis of the deposited data

How the results depend on the processing

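Over the 16 fits other than the one reported, the adjusted p threshold was passed by 5632 probes as reported, by 0 without a filter on dim probes (9278 at an unadjusted p under 0.05), by 0 in the methods' t-test (6084 unadjusted) and by 2644 to 4989 with 1 pool left out, 2872 when this was high-fertile pool 1 and 2644 when it was pool 2. Of the calmodulin and kinase probes 2 passed as reported, 4 with the spike-in shift, 0 without a filter (4 unadjusted), 1 where all arrays had to be well above background (2 of these probes could be tested), 0 in the methods' t-test (2 unadjusted), and 2 to 2 with any pool left out. Of the other pathway genes 4 passed as reported, 8 with normexp and 8 with the spike-in shift, 0 without a filter (4 unadjusted), 2 where all arrays had to be well above background, 0 in the methods' t-test (4 unadjusted), and 2 to 7 with 1 pool left out, with 2 without high-fertile pool 1 and 7 without low-fertile pool 1. Of the markers over the 5 lists 5 passed as reported, 9 with normexp, 0 without a filter (5 unadjusted), 0 in the methods' t-test (6 unadjusted), and 1 to 5 with 1 pool left out, 1 without either high-fertile pool and 3 without low-fertile pool 2. Accepting the scanner's weaker detection mark raised the calmodulin and kinase probes that were measured on both arrays of a group from 8 to 14. Where 1 probe of the 8 moved by more than its spread between pools, the setting was normexp, the spike-in shift or, once, the percentile over detected probes, and the cause was not tested. The pool numbers did not pair the samples (r = 0.0055 between deviations of same-numbered pools across 21024 probes), and with the replicate block 3 calmodulin and kinase probes, 4 pathway genes and 5331 of all probes passed. CAMKK2 was lost under the block, at adjusted p = 0.0736 in limma.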
